A study of Homo sapiens and Mus musculus with 8 samples.

Results

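KM12, a human colorectal cancer cell line, was compared as a tumor grown in a mouse with the same cells in a culture dish. The members are the 4 KM12 libraries of an RNA sequencing series of 8, taken by their labels: 2 cell line-derived xenografts (CDX) and 2 cultures. One library of each kind had the genotype GNAS Knock-out and one was parental, with the genotype GNASR201H, so the xenograft and the culture of each GNAS state form a pair. The groups were the knockout xenograft, the parental xenograft, the knockout culture and the parental culture, each a single library. All came from 1 line, no treatment is recorded for any of them, and the cultures were grown in RPMI-1640 with fetal bovine serum. The other 4 libraries, of the colorectal line LS174T carrying GNASR201H with Dox(+) or Dox(-), were used only to ask where KM12 differs. The strain and age of the mice, the site of injection, the time of growth and whether the knockout is 1 clone are not given in the sources used here, and no library has a second one of its kind. Of 60483 genes in the table of human genes, 14340 reached 1 CPM (counts scaled to a common library total) in at least 2 of the 4 libraries and were tested.

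A culture dish gives cells air-level oxygen, abundant glucose and amino acids, serum growth factors and a rigid surface. A tumor gives them blood-borne supply, neighbors in 3 dimensions and host cells. Oxygen acts through HIF factors, which the EGLN enzymes mark for destruction. Amino acid supply acts through ATF4, sterol supply through SREBP2, serum growth factors through the RAS and ERK cascade, and many small planar molecules through the aryl hydrocarbon receptor. Intestinal epithelium also keeps a choice between absorptive and secretory fates, in which ATOH1 sets the secretory branch and NEUROG3 its endocrine arm. The product of GNAS is the G protein subunit that switches on adenylyl cyclase and so raises cAMP, and R201H is an activating change.

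Depth was lower in the tumors, with 18662450 and 15924846 counts in the knockout and parental xenografts against 37735085 and 31868711 in the matching cultures. The 13 mitochondrially encoded protein genes and the other mitochondrial genes held 7.96% and 8.66% of counts in the knockout and parental xenografts, against 11.79% and 11.13% in the matching cultures. The xenograft libraries carry the mouse as organism in their labels, the table holds 0 mouse gene identifiers, and how mouse reads were handled is not given. Markers of host cells in the human counts were read for that reason. In CPM of the raw counts, the 14 fibroblast markers summed to 17.1 and 293 CPM in the knockout and parental xenografts, against 11.1 and 7.84 CPM in the matching cultures. Most of the 293 CPM came from COL3A1, a fibrillar collagen, at 0.322 and 241 CPM in the knockout and parental xenografts, against 0.769 and 0.565 CPM in the matching cultures. COL1A1, another, had 7.82 and 32.0 CPM in the knockout and parental xenografts, against 6.89 and 4.42 CPM in the matching cultures. LUM, the matrix proteoglycan lumican, had 0.536 and 10.99 CPM in the knockout and parental xenografts, against 0.239 and 0.126 CPM in the matching cultures. All 3 were highest in the parental xenograft. POSTN and FAP, which fibroblasts also make, had 0 counts in both tumors, and PDGFRA had 1 count in the knockout xenograft and 0 in the parental one. The 11 endothelial markers summed to 4.98 and 7.97 CPM in the knockout and parental xenografts and 15.4 and 9.51 CPM in the matching cultures. Most of each sum was ESAM, at 3.22 and 5.71 CPM in the knockout and parental xenografts, against 15.1 and 9.07 CPM in the matching cultures. At low counts, CDH5 had 21 and 14 in the knockout and parental xenografts, against 1 and 0 in the matching cultures. PECAM1 had 8 and 9, against 2 and 1. TEK was also higher in both tumors, while CLDN5, TIE1 and VWF were not. The 15 leukocyte and macrophage markers summed to 4.55 and 3.45 CPM in the knockout and parental xenografts, against 2.94 and 2.29 CPM in the matching cultures. Keratin 8, an epithelial keratin, had 4144 and 3444 CPM in knockout and parental xenografts, against 4462 and 4666 CPM in matching cultures. EPCAM, an epithelial adhesion molecule, had 528 and 583 CPM in knockout and parental xenografts, against 603 and 568 CPM in matching cultures, and its groups overlapped (log2 difference -0.08 ± 0.14, adjusted p = 0.704). In bulk tissue, fewer cells of a type and less RNA per cell cannot be told apart.

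GNAS (ENSG00000087460.22, chr20:58839718-58911192 on GRCh38, protein-coding) had 921 and 1415 CPM in knockout and parental xenografts, against 294 and 1103 CPM in matching cultures. The knockout culture was the lowest of the 4, yet transcripts remained in both libraries labelled knockout, and a count over the gene does not show whether its product is lost. Between xenograft and culture GNAS had a log2 difference of 1.00 ± 0.38, short of the threshold in edgeR's quasi-likelihood test (Benjamini-Hochberg adjusted p = 0.153). Here and below a log2 difference is the fitted difference of xenograft minus culture with its SE, which is derived from the test's F over 2 pairs, and CPM values were scaled with TMM factors.

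Between tumor and culture, KM12 gained transcripts of the secretory and endocrine lineage, of the hypoxia response, of sterol synthesis and of interferon response. It lost transcripts of the aryl hydrocarbon receptor pathway, of ATF4 and its targets, and of ERK output with its EGF family ligands. Transcripts of NRF2 targets and of mitochondrially encoded subunits were also lower. In all, 1636 genes (11.4% of those tested) were higher in xenograft and 1565 genes (10.9%) were lower, by edgeR's quasi-likelihood test with the GNAS state as a block and Benjamini-Hochberg adjusted p below 0.05. Each count of called list members below is to be set beside these shares of all tested genes. Among the called genes, 1254 of the higher and 654 of the lower differed at least 2-fold. Protein-coding genes made up 1101 of the higher and 1465 of the lower genes. Both pairs moved in the same direction for 11261 of the tested genes (78.5%). All 3201 called genes did so, which the test nearly fixes, since its spread is the disagreement between the pairs. Across the 14340 genes, which are not independent replicates, Pearson's r between the ratios of the pairs was 0.744.

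These p-values rest on 1 residual degree of freedom and on spread shared across genes. Leaving out 1 library also removes the block, since 3 libraries cannot carry it, and the spread is then that between the 2 libraries left of one kind. Without the knockout xenograft 3841 genes were higher and 3898 lower, and without the parental xenograft 3718 and 3894. Without the knockout culture or without the parental culture, edgeR called 0 genes in either direction, while 2695 and 2825 genes had an unadjusted p below 0.05. Each call in the text is thus lost without either culture. DESeq2 on all 4 libraries called 1372 genes higher and 1478 lower, and limma-voom called 1923 and 1701. Among the genes named as called in the text, the following lost the call under at least 1 alternative that kept all 4 libraries, with adjusted p up to 0.453: GP2, PRSS1, TPH1, CEACAM5, MUC12, NOTCH2, PDE4B, CDHR5, PHLDA1, H1-4, FASN, MT1F, PFKM, HLA-C, JAG1, PFKP, PKM, COX5B, H1-5, KRT10, DSG3, HSPA8, DLL4, MT2A, KRT14 and EGFR.

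**Figure D1:**
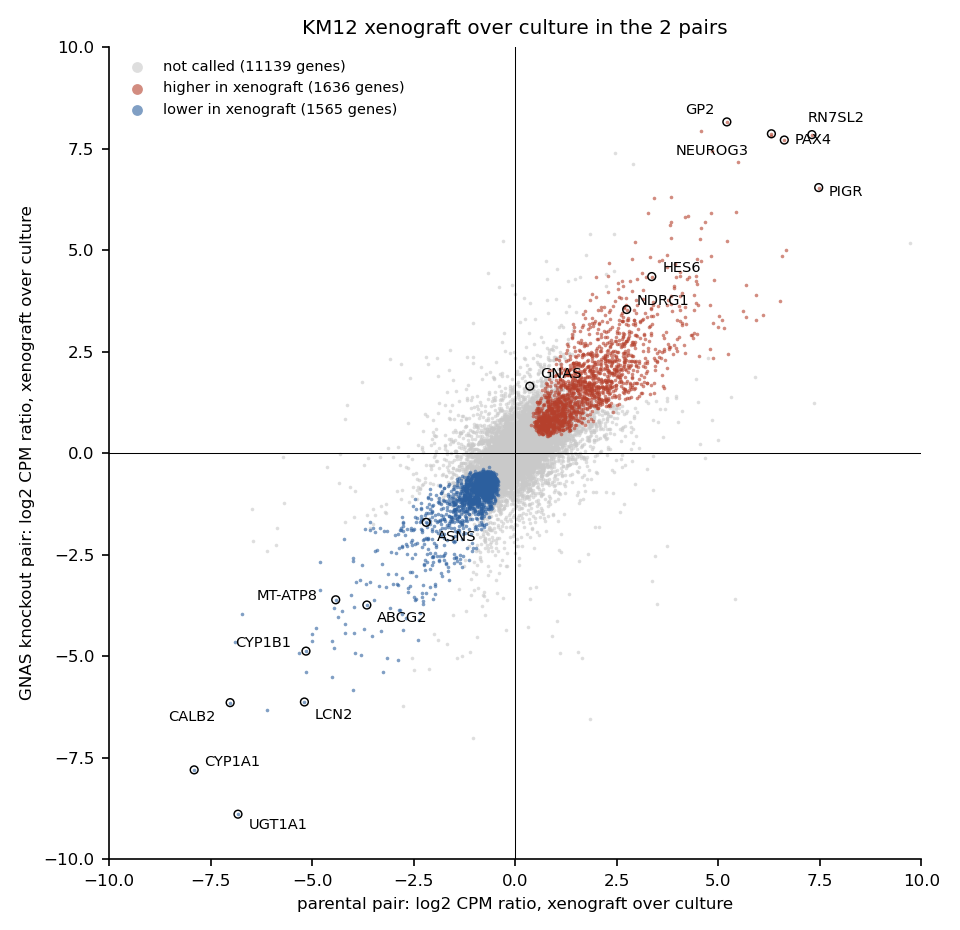
Each point is 1 of the 14340 tested genes, placed by its log2 CPM ratio of xenograft over culture in the parental pair (x axis) and in the GNAS knockout pair (y axis), with a prior count of 2. Red points are the 1636 genes called higher and blue points the 1565 called lower. Called genes lie at the upper right and lower left, which the test favors, and GNAS lies among the grey points.

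Several of the genes with large gains belong to the secretory and endocrine lineage. PAX4, a homeobox factor of endocrine progenitors (ENSG00000106331.13, chr7:127610292-127618114), had 22.5 and 14.4 CPM in knockout and parental xenografts, against 0.0289 and 0.0678 CPM in matching cultures. The culture values rest on 1 and 2 counts, and the ratio of xenograft to culture was 778 (139 to 30790.0) in the knockout pair and 213 (58.3 to 1766) in the parental pair (95% counting intervals). NEUROG3, the factor that commits intestinal and pancreatic cells to the endocrine fate (ENSG00000122859.4, chr10:69571698-69573238), had 31.7 and 16.9 CPM in knockout and parental xenografts, against 0.0578 and 0.136 CPM in matching cultures. Its log2 difference was 7.90 ± 0.53 (adjusted p = 0.00805). INSM1, a zinc finger factor of endocrine cells downstream of NEUROG3, had 30.6 and 27.0 CPM in knockout and parental xenografts, against 0.433 and 0.881 CPM in matching cultures, a log2 difference of 5.49 ± 0.39 (adjusted p = 0.00865). For all 3 factors both tumors were far above both cultures. Factors chosen for their size must show this, and both tumors lay above both cultures in 36.0% of all tested genes and below both in 35.6%.

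Other products of endocrine cells went the same way in part. Of the 19 genes on the enteroendocrine and neuronal list 8 could be tested, of which 5 were higher and 0 lower, with a median log2 difference of 3.86 against 0.01 for all tested genes. SCG2, secretogranin II of dense-core granules, had 44.4 and 40.8 CPM in knockout and parental xenografts, against 7.98 and 10.2 CPM in matching cultures (log2 difference 2.24 ± 0.21, adjusted p = 0.0105). TPH1, which makes serotonin in enterochromaffin cells, stayed near the filter at 1.78 and 1.23 CPM in knockout and parental xenografts, against 0.520 and 0.237 CPM in matching cultures (log2 difference 2.01 ± 0.48, adjusted p = 0.0388). SLC18A1, the vesicular monoamine transporter of enterochromaffin cells, had 17.5 and 8.76 CPM in knockout and parental xenografts, against 0 and 0.0339 CPM in matching cultures; those cultures hold 0 and 1 counts, and the ratio in the parental pair was 258 (45.7 to 10270.0). NTS, neurotensin, had the highest level of the list, at 44.7 and 323 CPM in knockout and parental xenografts, against 1.16 and 0.305 CPM in matching cultures, with a difference that did not pass (log2 difference 7.29 ± 1.51, adjusted p = 0.0725). Its tumors differed more from each other than those of any factor above. CHGA, CHGB, NEUROD1 and the hormone genes GCG, PYY, CCK and GAST did not reach the filter.

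Genes of the Notch pathway, through which secretory cells restrain their neighbors, went both ways. DLL1, a ligand that secretory progenitors present to their neighbors, had 28.7 and 16.0 CPM in knockout and parental xenografts, against 0.665 and 0.610 CPM in matching cultures (log2 difference 5.08 ± 0.34, adjusted p = 0.00674). DLL4, another ligand, had 9.51 and 5.90 CPM in knockout and parental xenografts, against 2.43 and 2.37 CPM in matching cultures (log2 difference 1.65 ± 0.36, adjusted p = 0.0325). HES6, a member of the HES family found in endocrine and neural progenitors, had 229 and 123 CPM in knockout and parental xenografts, against 11.2 and 11.9 CPM in matching cultures (log2 difference 3.87 ± 0.30, adjusted p = 0.0110). The receptor NOTCH2 was lower, at 152 and 108 CPM in knockout and parental xenografts, against 224 and 171 CPM in matching cultures (log2 difference -0.61 ± 0.14, adjusted p = 0.0373), as was the ligand JAG1 (log2 difference -0.58 ± 0.15, adjusted p = 0.0437). Of the 12 Notch pathway genes tested, a list drawn up after the values were seen, 3 were higher and 3 lower. NEURL1, a ubiquitin ligase that acts on Notch ligands, had 30.7 and 22.9 CPM in knockout and parental xenografts, against 0.578 and 0.881 CPM in matching cultures.

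Secreted and mucosal products were high in the tumors as well. PIGR, the receptor that carries polymeric antibodies across the epithelium (ENSG00000162896.5, chr1:206928518-206946466), had 254 and 243 CPM in knockout and parental xenografts, against 2.66 and 1.29 CPM in matching cultures, with a log2 difference of 7.02 ± 0.32 (adjusted p = 0.00516). GP2, a membrane glycoprotein of secretory granules and of antigen-sampling epithelium, had 220.1 and 103 CPM in knockout and parental xenografts, against 0.694 and 2.71 CPM in matching cultures (log2 difference 6.59 ± 1.05, adjusted p = 0.0497, and 0.453 without a filter on low counts). B3GNT6, which builds the core 3 glycans of intestinal mucins, had 18.5 and 8.06 CPM in knockout and parental xenografts, against 0.0289 and 0.203 CPM in matching cultures (log2 difference 6.75 ± 0.90, adjusted p = 0.0194). HEPACAM2, found in goblet and endocrine cells of the intestine, had 33.1 and 9.81 CPM in knockout and parental xenografts, against 0.0578 and 0.339 CPM in matching cultures (log2 difference 6.56 ± 1.14, adjusted p = 0.0435). In each of these 4 genes the tumors lay above the cultures, as in 36.0% of all tested genes.

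Of 25 mucin and secretory genes 22 were tested, of which 5 were higher (22.7%) and 1 lower (4.55%), against 11.4% and 10.9% of all tested genes. The other 16 were not called, and the median log2 difference of the list was 1.86. TFF2, a trefoil peptide secreted with mucus, had 288 and 119.7 CPM in knockout and parental xenografts, against 15.2 and 16.9 CPM in matching cultures (log2 difference 3.54 ± 0.45, adjusted p = 0.0261). FCGBP, a mucus protein, had 617 and 267 CPM in knockout and parental xenografts, against 127 and 65.1 CPM in matching cultures (log2 difference 2.16 ± 0.15, adjusted p = 0.00767). AGR3, a disulfide isomerase of secretory cells, had 65.5 and 34.4 CPM in knockout and parental xenografts, against 13.96 and 12.7 CPM in matching cultures (log2 difference 1.84 ± 0.25, adjusted p = 0.0159). MUC12, a membrane mucin, had 22.5 and 16.4 CPM in knockout and parental xenografts, against 3.93 and 4.41 CPM in matching cultures (log2 difference 2.21 ± 0.28, adjusted p = 0.0144), and SPINK1, a trypsin inhibitor, was the member that fell (log2 difference -3.66 ± 0.68, adjusted p = 0.0242). MUC5AC, a gel-forming mucin, had the highest level of the list, at 6099 and 2089 CPM in knockout and parental xenografts, against 301 and 697 CPM in matching cultures. That difference of 2.96 ± 0.96 did not pass (adjusted p = 0.141); its ratio was 20.3 (19.9 to 20.7) in the knockout pair and 3.00 (2.94 to 3.05) in the parental pair. The list's median log2 ratio was 2.25 in the knockout pair and 1.25 in the parental pair.

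Absorptive genes showed no common direction. Of 33 enterocyte and brush border genes 19 were tested, with 1 higher, 2 lower and a median of -0.25. GUCA2A, the peptide guanylin, had 6.73 and 2.33 CPM in knockout and parental xenografts, against 0.462 and 0.102 CPM in matching cultures (log2 difference 4.06 ± 0.47, adjusted p = 0.0131). CEACAM5, a surface glycoprotein with close copies that can share reads, was lower (log2 difference -0.72 ± 0.16, adjusted p = 0.0347), and so was the brush border cadherin CDHR5 (log2 difference -1.54 ± 0.38, adjusted p = 0.0436). All 30 epithelial junction and keratin genes were tested, with 4 higher and 3 lower. KRT23 had 3.47 and 1.58 CPM in knockout and parental xenografts, against 0.202 and 0.170 CPM in matching cultures (log2 difference 3.68 ± 0.52, adjusted p = 0.0159), the desmosomal cadherin DSC2 was higher (log2 difference 0.80 ± 0.14, adjusted p = 0.0226), and the tight junction scaffold TJP1 was lower (log2 difference -0.98 ± 0.14, adjusted p = 0.0161). CD24, a surface sialoglycoprotein of epithelial progenitors and among the 5 genes with the largest gain in level, had 892 and 891 CPM in knockout and parental xenografts, against 312 and 419 CPM in matching cultures (log2 difference 1.30 ± 0.16, adjusted p = 0.0139).

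**Figure D2:**
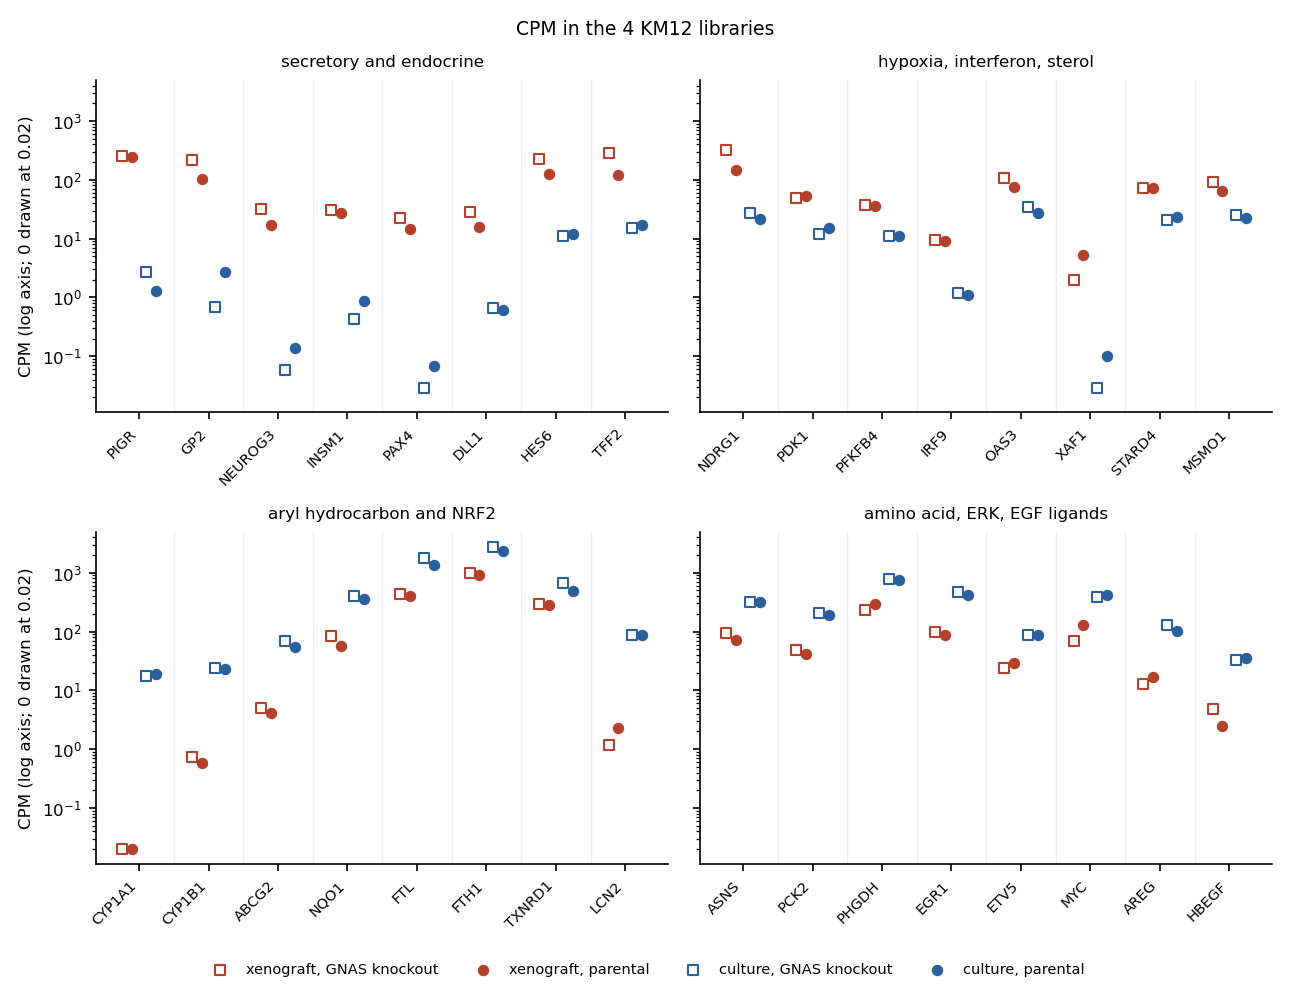
CPM of 32 named genes in each of the 4 KM12 libraries on a log axis, with xenografts in red left of cultures in blue, open squares for GNAS knockout and filled circles for parental; a value of 0 is drawn at 0.02. In every gene plotted both tumors lie on the same side of both cultures, such as CYP1A1 with 0 CPM in both tumors. The genes were picked from those named for size or small p, which favors this order. Among all tested genes both tumors lay above both cultures in 36.0% and below both in 35.6%.

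Hypoxia response genes were higher in the tumors. Of 25 listed genes 23 were tested, of which 13 were higher and 0 lower, with a median log2 difference of 0.90. NDRG1, a long-known hypoxia-induced gene, had 315 and 144 CPM in knockout and parental xenografts, against 27.1 and 21.5 CPM in matching cultures (log2 difference 3.15 ± 0.25, adjusted p = 0.0105). PDK1, which keeps pyruvate out of the mitochondria, had 48.3 and 53.01 CPM in knockout and parental xenografts, against 11.8 and 15.02 CPM in matching cultures (log2 difference 1.92 ± 0.18, adjusted p = 0.0105). PFKFB4, a regulator of glycolysis, had 37.6 and 36.4 CPM in knockout and parental xenografts, against 11.2 and 10.9 CPM in matching cultures (log2 difference 1.74 ± 0.18, adjusted p = 0.0115). BHLHE40, a repressor induced by HIF, had 82.5 and 63.8 CPM in knockout and parental xenografts, against 29.1 and 24.4 CPM in matching cultures (log2 difference 1.44 ± 0.16, adjusted p = 0.0118). ADM, the vasodilator peptide adrenomedullin, had 60.9 and 57.5 CPM in knockout and parental xenografts, against 23.6 and 17.3 CPM in matching cultures (log2 difference 1.55 ± 0.18, adjusted p = 0.0133). In these 5 genes, taken for their small p, the lower tumor exceeded the higher culture, as in 36.0% of all tested genes. VEGFA, the angiogenic growth factor and the member with the highest level, had 393 and 607 CPM in knockout and parental xenografts, against 413 and 447 CPM in matching cultures; its groups overlapped and its difference of 0.19 ± 0.17 did not pass (adjusted p = 0.460).

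The promoter of BHLHE40 shows the short core that HIF factors are known to bind, ACGTG, read on both strands. It is printed with each match in capitals, from RefSeq on GRCh38.p14, plus strand, chr3:4979187-4979486, 250 bases before to 50 bases after the annotated start. It holds 4 matches, of which the first 2 are a palindrome read on both strands.
BHLHE40: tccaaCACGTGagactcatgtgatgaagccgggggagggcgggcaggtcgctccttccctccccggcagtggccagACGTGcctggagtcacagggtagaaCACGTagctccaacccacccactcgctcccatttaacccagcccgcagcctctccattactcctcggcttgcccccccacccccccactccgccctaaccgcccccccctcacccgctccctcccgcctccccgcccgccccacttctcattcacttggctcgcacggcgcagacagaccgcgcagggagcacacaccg
BHLHE40 is shown because it had the most matches of the tested members. The same letters occur in 21.6% of the 27305 promoters in the RefSeq table, in 11 of the 22 hypoxia members found there and in 4 of the 11 called ones among these. ADM, PDK1 and PFKFB4 had 0 matches in this window. A match is a description of the letters and not a measured binding site.

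Glycolysis enzymes split. Of 17 tested, 5 were higher and 3 lower, with a median of 0.34. GAPDH had 4816 and 5288 CPM in knockout and parental xenografts, against 2911 and 3203 CPM in matching cultures (log2 difference 0.72 ± 0.11, adjusted p = 0.0176), and was among the 5 called genes with the largest gain in level. LDHA, which reduces pyruvate to lactate, had 829 and 848 CPM in knockout and parental xenografts, against 522 and 531 CPM in matching cultures (log2 difference 0.67 ± 0.13, adjusted p = 0.0252). PGAM1 had 182 and 228 CPM in knockout and parental xenografts, against 79.0 and 77.2 CPM in matching cultures (log2 difference 1.39 ± 0.16, adjusted p = 0.0132) and ALDOC had 55.8 and 50.9 CPM in knockout and parental xenografts, against 24.0 and 22.7 CPM in matching cultures (log2 difference 1.19 ± 0.16, adjusted p = 0.0154). GPI, the isomerase of the pathway's start, was higher (log2 difference 0.76 ± 0.15, adjusted p = 0.0261). The 3 that fell were the phosphofructokinases PFKM and PFKP and the pyruvate kinase PKM, named after their values were seen. PKM had 2324 and 2709 CPM in knockout and parental xenografts, against 3768 and 3612 CPM in matching cultures (log2 difference -0.56 ± 0.13, adjusted p = 0.0372).

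Sterol synthesis genes were higher, with 10 of 23 tested genes called higher and 1 lower and a median of 1.00. MSMO1, a sterol oxidase of the pathway, had 93.2 and 64.7 CPM in knockout and parental xenografts, against 24.9 and 22.2 CPM in matching cultures (log2 difference 1.73 ± 0.17, adjusted p = 0.0108). STARD4, a cholesterol carrier, had 72.9 and 71.3 CPM in knockout and parental xenografts, against 20.5 and 23.4 CPM in matching cultures (log2 difference 1.72 ± 0.17, adjusted p = 0.0105). MVK, mevalonate kinase, had 87.1 and 56.1 CPM in knockout and parental xenografts, against 28.4 and 26.1 CPM in matching cultures (log2 difference 1.36 ± 0.19, adjusted p = 0.0159). ACAT2 had 90.5 and 57.0 CPM in knockout and parental xenografts, against 23.3 and 24.1 CPM in matching cultures (log2 difference 1.60 ± 0.22, adjusted p = 0.0164). The list's median was 1.22 in the knockout pair and 0.55 in the parental pair, with 21 of 23 genes above 0 in each. The sterol regulatory element, searched as TCACNCCAC on both strands, occurs in 1.15% of all promoters and in 0 of the 17 members found in the table. Of 11 fatty acid synthesis genes tested, 1 was higher and 2 lower. FASN, fatty acid synthase, had 1053 and 800.3 CPM in knockout and parental xenografts, against 649 and 610.2 CPM in matching cultures (log2 difference 0.54 ± 0.14, adjusted p = 0.0494).

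Interferon response genes were higher, with 13 of 30 tested genes higher, 0 lower and a median of 1.25. OAS3, an enzyme that senses double-stranded RNA and the member with the highest level, had 106 and 75.5 CPM in knockout and parental xenografts, against 34.1 and 27.4 CPM in matching cultures (log2 difference 1.55 ± 0.15, adjusted p = 0.0107). OAS1 had 27.1 and 18.5 CPM in knockout and parental xenografts, against 7.89 and 6.03 CPM in matching cultures (log2 difference 1.70 ± 0.22, adjusted p = 0.0145). IRF9, the DNA-binding part of the interferon-activated complex, had 9.31 and 9.28 CPM in knockout and parental xenografts, against 1.19 and 1.08 CPM in matching cultures (log2 difference 3.03 ± 0.35, adjusted p = 0.0130). XAF1, an interferon-induced gene of cell death, had 1.98 and 5.31 CPM in knockout and parental xenografts, against 0.0289 and 0.102 CPM in matching cultures, and the ratio in the knockout pair, whose culture holds 1 count, was 68.5 (11.6 to 2774). OAS2 stayed low, at 5.10 and 1.64 CPM in knockout and parental xenografts, against 0.433 and 0.170 CPM in matching cultures (log2 difference 3.42 ± 0.46, adjusted p = 0.0149). Antigen presentation followed in part, with 5 of 15 tested genes higher and 0 lower. HLA-B had 412 and 252 CPM in knockout and parental xenografts, against 168 and 146 CPM in matching cultures (log2 difference 1.04 ± 0.18, adjusted p = 0.0217), HLA-C was higher by 0.74 ± 0.19 on the log2 scale, and the immunoproteasome subunits PSMB8 and PSMB10 by 1.08 ± 0.22 and 1.13 ± 0.22. HLA genes resemble each other closely and may share reads. B2M, the light chain of class I molecules, had 952 and 609 CPM in knockout and parental xenografts, against 621 and 541 CPM in matching cultures and did not pass (log2 difference 0.39 ± 0.16, adjusted p = 0.131).

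Metallothioneins were higher, 3 of 4 tested. MT2A, a zinc-binding protein, had 15.8 and 32.2 CPM in knockout and parental xenografts, against 6.24 and 9.22 CPM in matching cultures (log2 difference 1.58 ± 0.24, adjusted p = 0.0170). MT1X had 9.41 and 13.1 CPM in knockout and parental xenografts, against 3.29 and 3.25 CPM in matching cultures (log2 difference 1.76 ± 0.32, adjusted p = 0.0226). MT1F had 0.990 and 1.40 CPM in knockout and parental xenografts, against 0.116 and 0.136 CPM in matching cultures (log2 difference 3.19 ± 0.55, adjusted p = 0.0211). These genes are close copies and may share reads.

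**Figure D3:**
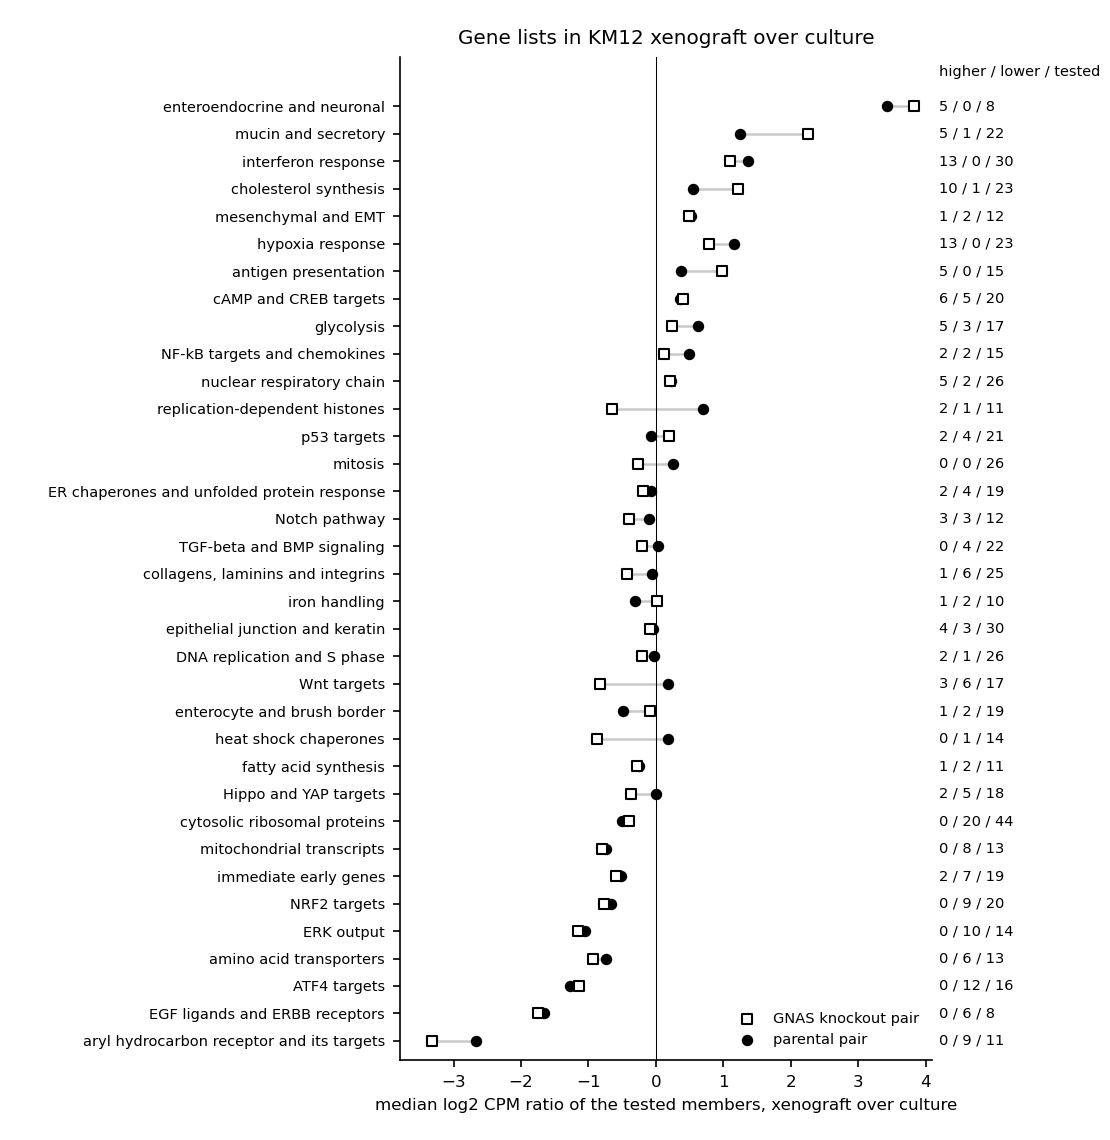
For each gene list with at least 5 tested members, the median log2 CPM ratio of xenograft over culture is plotted for the GNAS knockout pair (open squares) and the parental pair (filled circles), and the numbers at the right count members called higher, called lower and tested. Enteroendocrine, mucin and interferon lists lie at the top with medians above 1 in both pairs, and the aryl hydrocarbon receptor list lies at the bottom with medians of -3.32 and -2.66; heat shock chaperones lie on opposite sides of 0 in the 2 pairs.

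Genes of the aryl hydrocarbon receptor pathway were lower, in a list set out after the values were seen. Of 11 tested genes 9 were lower and 0 higher, with a median of -2.90. CYP1A1, the receptor's best-known target and an oxidase of polycyclic compounds (ENSG00000140465.12, chr15:74719542-74725610), had 0 counts in both xenografts, against 17.5 and 18.9 CPM in the knockout and parental cultures. With a floor of 3 counts per library it was at least 112-fold lower in xenograft. CYP1B1, a related oxidase, had 0.743 and 0.584 CPM in knockout and parental xenografts, against 24.1 and 23.5 CPM in matching cultures (log2 difference -5.15 ± 0.30, adjusted p = 0.00516). ABCG2, an efflux pump, had 5.00 and 4.203 CPM in knockout and parental xenografts, against 67.9 and 53.8 CPM in matching cultures (log2 difference -3.72 ± 0.19, adjusted p = 0.00516). NQO1, a quinone reductase under both the aryl hydrocarbon receptor and NRF2, had 82.7 and 56.0 CPM in knockout and parental xenografts, against 402 and 355 CPM in matching cultures (log2 difference -2.47 ± 0.17, adjusted p = 0.00716). UGT1A1, a glucuronyl transferase, had 0 and 0.175 CPM in knockout and parental xenografts, against 37.5 and 28.8 CPM in matching cultures; genes of the UGT1A locus share exons, so its counts are uncertain. In each of these 5 genes, named for their small p, both tumors lay below both cultures, as in 35.6% of all tested genes.

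The core that the receptor and its partner ARNT are known to bind is GCGTG. It lies 57 bases before the RefSeq start of CYP1A1 and at base 2 after that of NQO1, on the other strand there. The gene coordinates given above for CYP1A1 place its start at another base. A match describes the letters and is not a measured binding site. Both promoters are printed from RefSeq on GRCh38.p14 with the match in capitals (read as CACGC in NQO1), minus strand, chr15:74725479-74725778 and chr16:69726511-69726810.
CYP1A1: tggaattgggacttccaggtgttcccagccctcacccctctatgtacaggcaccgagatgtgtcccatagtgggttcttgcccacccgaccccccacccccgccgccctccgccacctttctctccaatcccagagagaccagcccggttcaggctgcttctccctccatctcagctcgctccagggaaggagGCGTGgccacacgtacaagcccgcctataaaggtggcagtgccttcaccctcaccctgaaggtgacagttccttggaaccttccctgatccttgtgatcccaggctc
NQO1: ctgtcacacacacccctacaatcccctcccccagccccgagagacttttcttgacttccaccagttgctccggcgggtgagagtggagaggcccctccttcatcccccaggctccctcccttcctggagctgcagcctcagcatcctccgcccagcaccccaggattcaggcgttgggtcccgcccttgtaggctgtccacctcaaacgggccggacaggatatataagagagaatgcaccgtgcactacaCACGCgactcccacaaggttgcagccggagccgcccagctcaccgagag
The letters occur in 36.3% of all promoters in the table in 6 of the 10 listed genes found there and in 4 of the 7 called ones among these.

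NRF2 targets, the antioxidant and conjugation genes, were lower, 9 of 20 tested with 0 higher and a median of -0.74. TXNRD1, thioredoxin reductase, had 298 and 279 CPM in knockout and parental xenografts, against 667 and 479.6 CPM in matching cultures (log2 difference -0.97 ± 0.16, adjusted p = 0.0189). GCLC, the catalytic subunit of glutathione synthesis, had 82.4 and 78.3 CPM in knockout and parental xenografts, against 148 and 140.4 CPM in matching cultures (log2 difference -0.84 ± 0.14, adjusted p = 0.0193). The ferritin chains, which store iron, fell by more: FTL had 443 and 399.6 CPM in knockout and parental xenografts, against 1758 and 1357 CPM in matching cultures (log2 difference -1.88 ± 0.14, adjusted p = 0.00805) and FTH1 had 971 and 916 CPM in knockout and parental xenografts, against 2748 and 2295 CPM in matching cultures (log2 difference -1.41 ± 0.13, adjusted p = 0.0105). SLC40A1, the iron exporter ferroportin, was higher, at 50.9 and 56.4 CPM in knockout and parental xenografts, against 21.8 and 16.6 CPM in matching cultures (log2 difference 1.49 ± 0.20, adjusted p = 0.0155). The transferrin receptor TFRC did not pass (log2 difference -0.36 ± 0.14, adjusted p = 0.127). Of the 10 iron handling genes, again set out after the values were seen, 1 was higher and 2 lower.

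ATF4 and its targets, of which amino acid synthesis genes are a part, were lower, 12 of 16 tested with 0 higher and a median of -1.27. ATF4 itself had 522 and 459 CPM in knockout and parental xenografts, against 989.7 and 1056 CPM in matching cultures (log2 difference -1.06 ± 0.14, adjusted p = 0.0146). ASNS, asparagine synthetase (ENSG00000070669.15, chr7:97852118-97872542), had 95.9 and 70.5 CPM in knockout and parental xenografts, against 313 and 323 CPM in matching cultures (log2 difference -1.95 ± 0.18, adjusted p = 0.0105). PHGDH and PSAT1, which make serine, had log2 differences of -1.53 ± 0.16 (adjusted p = 0.0115) and -1.44 ± 0.17 (adjusted p = 0.0131). PCK2, the mitochondrial carboxykinase, had 48.3 and 42.2 CPM in knockout and parental xenografts, against 208 and 192 CPM in matching cultures (log2 difference -2.15 ± 0.15, adjusted p = 0.00674). SESN2, a leucine sensor, had 39.2 and 24.2 CPM in knockout and parental xenografts, against 113 and 95.0 CPM in matching cultures (log2 difference -1.75 ± 0.18, adjusted p = 0.0115). Culture values within each of these genes differed by far less than the distance to the tumors. Apart from ATF4, the member with the highest level, the genes were named for their small p, which favors such a distance. In each of them both tumors lay below both cultures, as in 35.6% of all tested genes.

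The promoter of ASNS holds the element through which ATF4 is known to act on it, TGATGNAA, read on both strands. It is printed from RefSeq on GRCh38.p14, minus strand, chr7:97872359-97872658, with the match in capitals, 68 bases before the RefSeq start. The gene coordinates given above for ASNS place its start at another base. The match describes the letters and is not a measured binding site.
ASNS: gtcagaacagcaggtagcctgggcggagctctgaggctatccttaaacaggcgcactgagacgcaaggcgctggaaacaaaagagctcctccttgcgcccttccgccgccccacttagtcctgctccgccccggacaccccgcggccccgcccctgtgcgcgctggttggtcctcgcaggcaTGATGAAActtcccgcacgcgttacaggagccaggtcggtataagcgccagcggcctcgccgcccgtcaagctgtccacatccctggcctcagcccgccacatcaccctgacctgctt
These letters occur in 3.67% of all promoters in the table in 4 of the 15 listed genes found there and in 2 of the 10 called ones among these.

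Amino acid transporters were lower too, 6 of 13 tested with 0 higher. SLC7A1, the arginine and lysine carrier, had 192 and 163 CPM in knockout and parental xenografts, against 516 and 496 CPM in matching cultures (log2 difference -1.51 ± 0.14, adjusted p = 0.0105). SLC1A5, the glutamine carrier, had 140.4 and 160.3 CPM in knockout and parental xenografts, against 379 and 376 CPM in matching cultures (log2 difference -1.33 ± 0.15, adjusted p = 0.0125). SLC6A9, a glycine carrier, had 11.2 and 12.6 CPM in knockout and parental xenografts, against 44.1 and 47.4 CPM in matching cultures (log2 difference -1.94 ± 0.18, adjusted p = 0.0105). SLC7A5, which carries leucine and has the highest level of the list, had 249 and 651 CPM in knockout and parental xenografts, against 1068 and 1085 CPM in matching cultures and did not pass (log2 difference -1.42 ± 0.41, adjusted p = 0.101). The unfolded protein response, a neighboring stress pathway, showed no common direction, with 2 of 19 genes higher and 4 lower. Its sensor ATF6 had 40.4 and 37.2 CPM in knockout and parental xenografts, against 92.8 and 86.7 CPM in matching cultures (log2 difference -1.21 ± 0.15, adjusted p = 0.0137), and the chaperone HYOU1 was lower (log2 difference -0.84 ± 0.13, adjusted p = 0.0177) while CRELD2 was higher (log2 difference 0.87 ± 0.19, adjusted p = 0.0353).

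Transcripts that report on ERK signaling were lower, 10 of 14 tested with 0 higher and a median of -0.93. EGR1, an immediate early factor, had 99.7 and 87.3 CPM in knockout and parental xenografts, against 468 and 418 CPM in matching cultures (log2 difference -2.24 ± 0.14, adjusted p = 0.00641). ETV5, a factor whose transcription ERK keeps up, had 24.0 and 29.2 CPM in knockout and parental xenografts, against 86.1 and 87.7 CPM in matching cultures (log2 difference -1.71 ± 0.16, adjusted p = 0.0105). Its relative ETV4 had 29.2 and 47.0 CPM in knockout and parental xenografts, against 109 and 126 CPM in matching cultures (log2 difference -1.66 ± 0.18, adjusted p = 0.0124). FOSL1, an AP-1 subunit, had 29.7 and 57.5 CPM in knockout and parental xenografts, against 196 and 189 CPM in matching cultures (log2 difference -2.22 ± 0.29, adjusted p = 0.0180). PHLDA1, the member with the highest level, was lower by less (log2 difference -0.88 ± 0.18, adjusted p = 0.0291). MYC had 69.8 and 127 CPM in knockout and parental xenografts, against 387 and 422 CPM in matching cultures (log2 difference -2.10 ± 0.23, adjusted p = 0.0133) and FOS had 151 and 129 CPM in knockout and parental xenografts, against 492 and 653 CPM in matching cultures (log2 difference -2.03 ± 0.20, adjusted p = 0.0115). Of 19 immediate early genes, 7 were lower and 2 higher, and one of the higher was NR4A2, an orphan nuclear receptor responsive to cAMP, at 36.2 and 47.8 CPM in knockout and parental xenografts, against 11.5 and 14.8 CPM in matching cultures (log2 difference 1.67 ± 0.18, adjusted p = 0.0115).

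The ligands that drive this cascade through the EGF receptor were lower as well, in a list set out after the values were seen, with 6 of 8 tested genes lower and 0 higher. AREG, amphiregulin, had 13.1 and 17.0 CPM in knockout and parental xenografts, against 127 and 103 CPM in matching cultures (log2 difference -2.94 ± 0.22, adjusted p = 0.00925). EREG, epiregulin, had 22.5 and 46.2 CPM in knockout and parental xenografts, against 223 and 199.7 CPM in matching cultures (log2 difference -2.70 ± 0.35, adjusted p = 0.0215). HBEGF had 4.90 and 2.51 CPM in knockout and parental xenografts, against 33.5 and 35.5 CPM in matching cultures (log2 difference -3.27 ± 0.33, adjusted p = 0.0124) and TGFA had 1.04 and 3.97 CPM in knockout and parental xenografts, against 19.3 and 20.7 CPM in matching cultures (log2 difference -3.22 ± 0.53, adjusted p = 0.0252). The receptor EGFR had 54.7 and 46.9 CPM in knockout and parental xenografts, against 84.6 and 80.5 CPM in matching cultures (log2 difference -0.70 ± 0.15, adjusted p = 0.0307). ERBB3, its partner, had 257 and 141 CPM in knockout and parental xenografts, against 319 and 324 CPM in matching cultures and did not pass (log2 difference -0.76 ± 0.25, adjusted p = 0.0942). For the 4 ligands named, which are called genes of that list, both tumors lay below both cultures, as in 35.6% of all tested genes.

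cAMP and CREB targets, the genes nearest to the stimulatory G protein, went both ways, with 6 of 20 tested higher and 5 lower. PDE4B, a phosphodiesterase that breaks down cAMP, had 7.33 and 41.2 CPM in knockout and parental xenografts, against 0.173 and 3.02 CPM in matching cultures (log2 difference 4.31 ± 0.45, adjusted p = 0.0132). Within each environment PDE4B was higher in the parental than in the knockout library. DUSP1, a phosphatase of MAP kinases, had 10.7 and 14.9 CPM in knockout and parental xenografts, against 48.1 and 43.6 CPM in matching cultures (log2 difference -1.85 ± 0.22, adjusted p = 0.0138). The Wnt target list also split, 3 of 17 higher and 6 lower. EPHB2, a receptor of crypt cells, had 4.85 and 6.01 CPM in knockout and parental xenografts, against 39.0 and 53.1 CPM in matching cultures (log2 difference -3.08 ± 0.20, adjusted p = 0.00641). RNF43, which removes Wnt receptors, had 42.7 and 50.9 CPM in knockout and parental xenografts, against 95.2 and 105 CPM in matching cultures (log2 difference -1.10 ± 0.15, adjusted p = 0.0145). PROX1, a homeobox factor and Wnt target in colorectal tumors, was higher (log2 difference 1.15 ± 0.19, adjusted p = 0.0195). In the TGF-beta and BMP list 4 of 22 were lower and 0 higher, among them the ligands TGFB1, at 30.6 and 35.2 CPM in knockout and parental xenografts, against 122 and 125 CPM in matching cultures (log2 difference -1.91 ± 0.15, adjusted p = 0.00887), and BMP4, at 28.1 and 54.9 CPM in knockout and parental xenografts, against 203 and 236 CPM in matching cultures (log2 difference -2.48 ± 0.23, adjusted p = 0.0115). Hippo and YAP targets had 2 of 18 higher and 5 lower.

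Of 25 collagens, laminins and integrins tested, 6 were lower and 1 higher. ITGB4, the beta chain of the hemidesmosome integrin, had 437 and 263 CPM in knockout and parental xenografts, against 1067 and 1066 CPM in matching cultures (log2 difference -1.65 ± 0.22, adjusted p = 0.0163), and its partner ITGA6 was lower (log2 difference -0.76 ± 0.15, adjusted p = 0.0261). COL17A1, the hemidesmosome collagen, had 188 and 127 CPM in knockout and parental xenografts, against 438 and 359 CPM in matching cultures (log2 difference -1.36 ± 0.15, adjusted p = 0.0129). COL1A2, a chain of type I collagen, was the member that rose, at 3.52 and 3.79 CPM in knockout and parental xenografts, against 0.549 and 0.814 CPM in matching cultures (log2 difference 2.44 ± 0.42, adjusted p = 0.0204). SPARC, a matrix protein of stromal and some tumor cells, had 6.19 and 10.7 CPM in knockout and parental xenografts, against 0.231 and 0.475 CPM in matching cultures (log2 difference 4.59 ± 0.41, adjusted p = 0.0105). FGF7, a growth factor known from mesenchymal cells, had 11.2 and 6.48 CPM in knockout and parental xenografts, against 0 and 0.0678 CPM in matching cultures. Without COL3A1, the summed level of the fibroblast markers was 16.8 and 52.2 CPM in the knockout and parental xenografts, against 10.3 and 7.27 CPM in the matching cultures, and their part in these 3 genes was not tested. In the mesenchymal list 1 of 12 genes was higher and 2 lower; SNAI1, a repressor of E-cadherin, had 2.13 and 4.14 CPM in knockout and parental xenografts, against 14.2 and 13.6 CPM in matching cultures (log2 difference -2.22 ± 0.37, adjusted p = 0.02002), and L1CAM fell by more (log2 difference -4.46 ± 0.61, adjusted p = 0.0155).

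Mitochondrially encoded transcripts were lower, 8 of 13 with 0 higher and a median of -0.69. MT-CO2 had 6187 and 6243 CPM in knockout and parental xenografts, against 16240.0 and 16260.0 CPM in matching cultures (log2 difference -1.39 ± 0.11, adjusted p = 0.00865). MT-ND5 had 2302 and 2090.0 CPM in knockout and parental xenografts, against 11380.0 and 10340.0 CPM in matching cultures (log2 difference -2.31 ± 0.11, adjusted p = 0.00514). The loss was uneven: MT-ATP8 had 203 and 117 CPM in knockout and parental xenografts, against 2485 and 2498 CPM in matching cultures (log2 difference -4.02 ± 0.25, adjusted p = 0.00958), while MT-ATP6, which lies on the same transcript, had 5030.0 and 5575 CPM in knockout and parental xenografts, against 8547 and 8483 CPM in matching cultures (log2 difference -0.69 ± 0.11, adjusted p = 0.0195). MT-CO1, the member with the highest level, did not pass (log2 difference -0.14 ± 0.13, adjusted p = 0.456). Genes of this compact genome overlap or abut, so reads near their borders are uncertain. Whether xenograft and culture libraries were aligned and counted against the same reference is not given in the sources used here. The part of the reference in the values of MT-ATP8 and of the gene copies RPL41P1 and PTMAP4 was not tested. In LS174T these genes moved the same way, with log2 differences of -4.04, 6.385 and -2.87. Of the 3, only PTMAP4 differed between the lines by edgeR's test. The mitochondrially encoded list had a median of -1.055 in LS174T, and 2 of its 13 genes differed between the lines. Nuclear genes of the respiratory chain went both ways, 5 of 26 higher and 2 lower, with NDUFA9 higher (log2 difference 0.98 ± 0.15, adjusted p = 0.0176) and COX5B lower (log2 difference -0.62 ± 0.15, adjusted p = 0.0382).

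Cytosolic ribosomal protein genes were lower, 20 of 44 with 0 higher and a median of -0.46. RPS4X had 866 and 803 CPM in knockout and parental xenografts, against 1801 and 1904 CPM in matching cultures (log2 difference -1.15 ± 0.13, adjusted p = 0.0129). EEF2, the elongation factor that moves the ribosome, had 3684 and 3135 CPM in knockout and parental xenografts, against 7008 and 7231 CPM in matching cultures (log2 difference -1.07 ± 0.13, adjusted p = 0.0133). Many of these genes have processed copies elsewhere in the genome and may lose or gain reads. RPL41P1, such a copy, had 99.2 and 105 CPM in knockout and parental xenografts, against 2.60 and 2.75 CPM in matching cultures (log2 difference 5.25 ± 0.18, adjusted p = 0.00287), while PTMAP4, a copy of the prothymosin gene, had 1.24 and 1.52 CPM in knockout and parental xenografts, against 32.3 and 36.2 CPM in matching cultures (log2 difference -4.64 ± 0.24, adjusted p = 0.00516). RN7SL2, the RNA of the signal recognition particle, which has no long poly(A) tail, had 283 and 157 CPM in knockout and parental xenografts, against 1.16 and 0.915 CPM in matching cultures (log2 difference 7.70 ± 0.23, adjusted p = 0.00267). By gene type, 52.0% of 75 sense intronic, 25.2% of 318 processed pseudogenes and 23.6% of 652 antisense genes tested were higher, against 9.07% of 12145 protein-coding genes. Their part in the other results was not tested.

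Cell division did not move in a common direction. None of 26 mitosis genes passed edgeR's test, with a median of 0.02, and DESeq2 called 0. In edgeR's test 4 of the 26 had an unadjusted p below 0.05, against 5809 of all 14340 tested genes. The pairs went opposite ways on this list. Its median log2 ratio was -0.27 in the knockout pair, with 8 of 26 genes above 0, and 0.26 in the parental pair, with 19 of 26. MKI67, the usual marker of dividing cells, had 415 and 366 CPM in knockout and parental xenografts, against 559 and 419.6 CPM in matching cultures (log2 difference -0.31 ± 0.14, adjusted p = 0.159). Of 26 replication genes 2 were higher and 1 lower; TYMS, thymidylate synthase, had 40.9 and 55.6 CPM in knockout and parental xenografts, against 20.1 and 20.0 CPM in matching cultures (log2 difference 1.25 ± 0.19, adjusted p = 0.0177). p53 targets had 2 of 21 higher and 4 lower, of which GDF15, a stress cytokine, had 176 and 77.1 CPM in knockout and parental xenografts, against 411 and 383 CPM in matching cultures (log2 difference -1.77 ± 0.31, adjusted p = 0.0302). In the NF-kB list 2 of 15 were higher and 2 lower, and the largest change was the loss of LCN2, an iron-trapping lipocalin (ENSG00000148346.10, chr9:128149071-128153455), at 1.19 and 2.33 CPM in knockout and parental xenografts, against 88.7 and 88.2 CPM in matching cultures (log2 difference -5.69 ± 0.31, adjusted p = 0.00626). CALB2, calretinin, which also marks mesothelium, had 0.148 and 0.117 CPM in knockout and parental xenografts, against 16.0 and 25.3 CPM in matching cultures (log2 difference -7.18 ± 0.42, adjusted p = 0.00516). Among other losses, the protease KLK10 had 3.66 and 2.80 CPM in knockout and parental xenografts, against 113 and 116 CPM in matching cultures (log2 difference -5.14 ± 0.21, adjusted p = 0.00423). PRSS1, trypsinogen, a gene with close copies, had 7.33 and 1.81 CPM in knockout and parental xenografts, against 187 and 226 CPM in matching cultures (log2 difference -5.65 ± 0.78, adjusted p = 0.0384, and 0.386 without a filter on low counts).

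The pairs parted on several lists, mitosis among them. Median log2 ratios in the knockout and parental pairs were -0.83 and 0.19 for Wnt targets. They were -0.65 and 0.70 for replication-dependent histones. Heat shock chaperones had a median log2 ratio of -0.87 in the knockout pair and 0.18 in the parental pair, with 0 of 14 genes above 0 in the knockout pair and 11 of 14 in the parental pair. HSP90AA1, the inducible HSP90, had 1466 and 3402 CPM in knockout and parental xenografts, against 3409 and 3180.0 CPM in matching cultures, so the knockout xenograft stood apart from the other 3 libraries. HSPA8, the constitutive HSP70, was the only member called, lower at 738 and 1536 CPM in knockout and parental xenografts, against 2690.0 and 3063 CPM in matching cultures (log2 difference -1.43 ± 0.24, adjusted p = 0.0272). With 1 library of each kind, the GNAS state and the single tumor cannot be told apart, and these differences between the pairs were not tested.

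**Figure D4:**
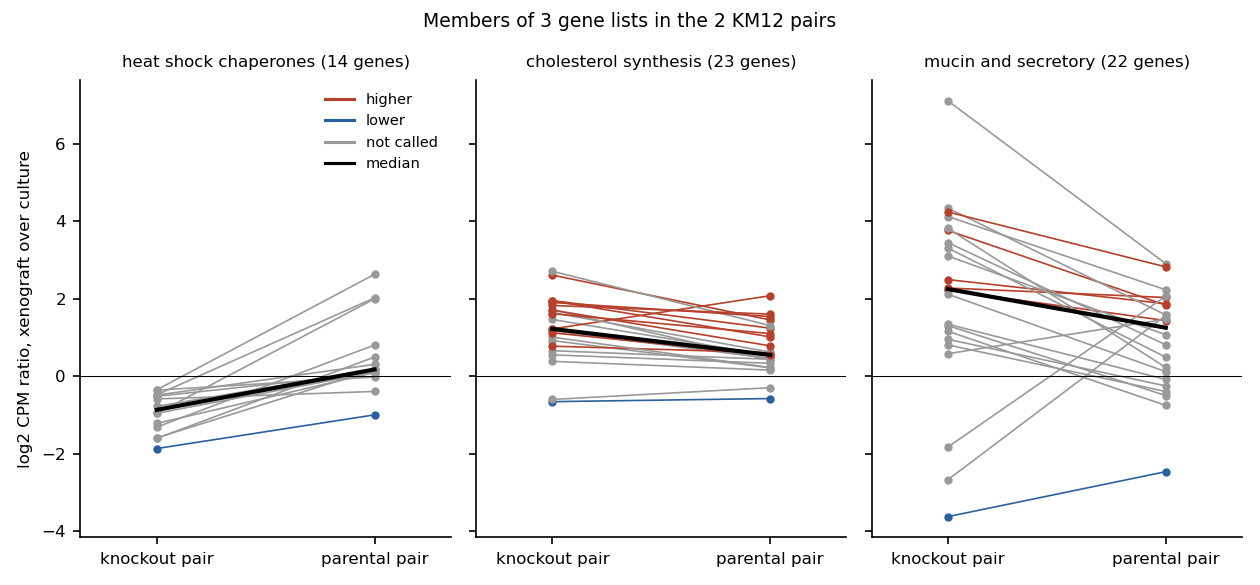
Log2 CPM ratios of xenograft over culture for each tested member of 3 lists, with the GNAS knockout pair left of the parental pair, lines joining the same gene and the black line joining medians. The heat shock lines cross 0, with medians of -0.87 and 0.18, and the cholesterol and mucin medians lie above 0 in both pairs and higher in the knockout pair.

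LS174T gives a measure of what is particular to KM12, through the difference of the xenograft effect between the lines in a fit of all 8 libraries. That difference passed edgeR's test for 2198 of 16070 genes (13.7%). Responses of the aryl hydrocarbon receptor list ran the same way, with a median of -2.90 in KM12 and -4.95 in LS174T, and 3 of 11 genes differed, ABCG2 among them, which fell by more in LS174T (-8.21, adjusted p of the difference = 0.00185). CYP1A1 had 0.194 and 0.0407 CPM in the LS174T Dox(+) and Dox(-) xenografts, against 553 and 868 CPM in the matching cultures. Hypoxia genes rose by less in KM12, with medians of 0.90 in KM12 and 2.82 in LS174T and 16 of 23 genes differing, all 16 with the smaller log2 difference in KM12. ADM, for one, had a log2 difference of 1.55 ± 0.18 in KM12 and 5.10 in LS174T (adjusted p of the difference = 8.18e-04).

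ATF4 targets and interferon genes parted between the lines. The ATF4 list had a median of -1.27 in KM12 and 0.43 in LS174T, and for 14 of 16 genes the xenograft effect was lower in KM12 by the test of the difference. ASNS had a log2 difference of -1.95 ± 0.18 in KM12 and 0.51 in LS174T (adjusted p of the difference = 0.00111). The interferon list had a median of 1.25 in KM12 and -1.28 in LS174T, and for 18 of 30 genes the effect was higher in KM12. OAS3 had 1.55 ± 0.15 in KM12 and -2.16 in LS174T (adjusted p of the difference = 3.98e-04). For 32 of 44 cytosolic ribosomal protein genes the xenograft effect, not the level, was lower in KM12 than in LS174T. NEUROG3 rose in KM12 by 4.54 more on the log2 scale than in LS174T (adjusted p of the difference = 0.00367), while PAX4 (adjusted p of the difference = 0.408) and INSM1 (adjusted p of the difference = 0.626) did not pass that test. For the sterol list 1 of 23 genes and for metallothioneins 0 of 4 differed between the lines.

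**Figure D5:**
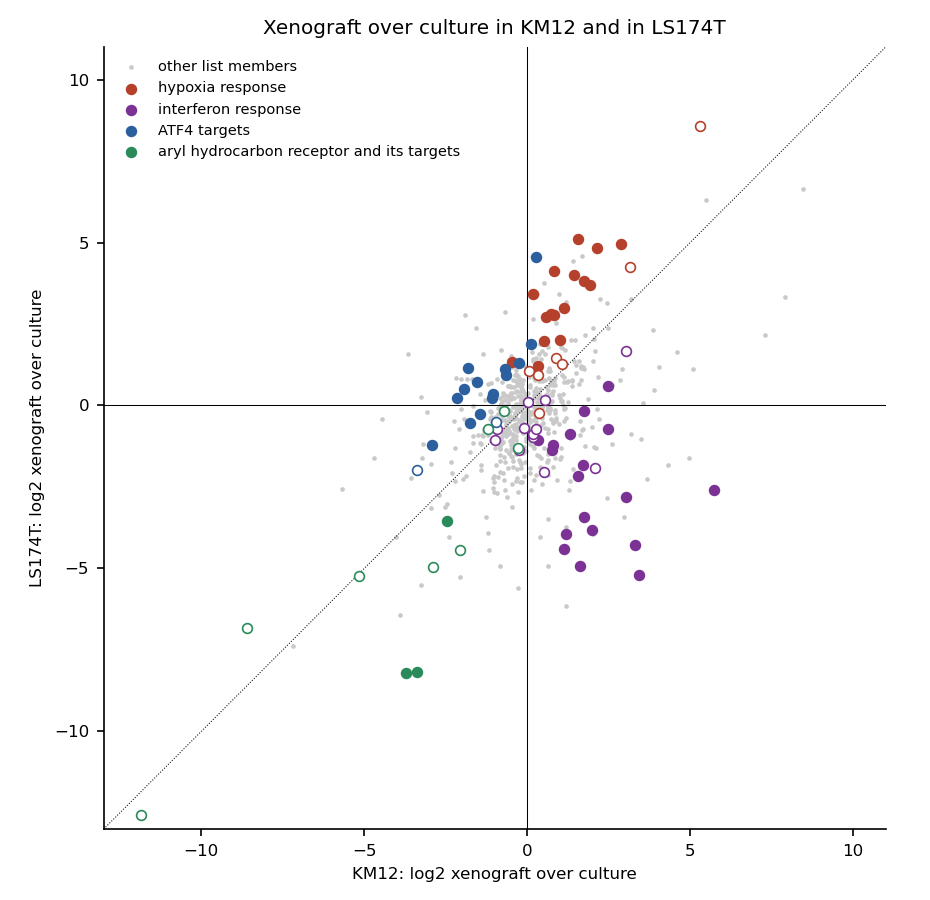
Log2 differences of xenograft over culture for the tested list members in KM12 (x axis) and LS174T (y axis), with 4 lists in color, filled where the difference between the lines passed edgeR's test at an adjusted p below 0.05 and open where it did not; the dotted line marks equal values. Most interferon genes lie at the lower right (medians 1.25 in KM12 and -1.28 in LS174T), most hypoxia genes above the dotted line, and ATF4 targets at the left with LS174T values mostly above those of KM12.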

How the data were processed

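RNA sequencing libraries were made from oligo(dT)-captured RNA with random hexamers and no step that marks the strand, per the labels' protocols, so overlapping genes on opposite strands cannot be told apart. The deposited values are raw read counts per human gene, which the authors made with STAR 2.7.2b and HTSeq 0.11.0 on the builds hg38 and GRCm39, per the submitters' processing notes. The annotation release, the strand setting and the handling of mouse reads are not given in the sources used here. GENCODE release names on GRCh38 matched 56753 of 60483 genes (93.8%), and 27461 genes had no counts in the 4 KM12 libraries. Entries naming no gene numbered 0.

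Counts were scaled with TMM factors (1.081 to 1.086 in xenografts, 0.919 to 0.927 in cultures) and tested in R 4.3.3 with edgeR 4.0.16 (robust quasi-likelihood F test, GNAS state as a block, 1 residual degree of freedom), adjusted by Benjamini-Hochberg over 14340 genes with at least 1 CPM in 2 libraries, with a threshold of 0.05. The difference between lines used all 8 libraries, with pair as a block and 2 residual degrees of freedom, over 16070 genes. The main fit was tested on counts simulated around the culture means, with no difference between the GNAS states. Each SE was taken as the size of the log2 difference over the root of its F. Pair ratios are described with a prior count of 2 and 95% Poisson intervals, which cover counting error only. Against 0 counts a floor of 3 counts per library gives a bound. Depth of 15924846 to 37735085 counts makes counting error small for well-expressed genes. Replicate spread within a group was not measured, so p-values reflect the disagreement between single libraries.

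The members and the gene lists were chosen with earlier results of these data known, and 4 lists were added after the values were seen. Named genes were GNAS, the 15 genes per direction with the largest smaller pair ratio among called genes with at least 5 CPM in both libraries of the higher side, the 5 per direction with the largest difference in mean CPM, and per list up to 5 genes with the smallest p and the member with the highest level. COL3A1, LUM, EPCAM, MT-ATP6, PKM, PFKM and PFKP were named outside this rule, after their values were seen. Alternatives were DESeq2 1.42.0, limma 3.58.1 (voom), RLE size factors, other filters, thinning, no block and leaving out each library. A few members of the lists are not reported here. Promoters and their letters came from RefSeq tables on GRCh38.p14.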

Additional observations from a re-analysis of the deposited data

Results flagged for a closer look

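The xenograft effect on 24 of the genes named by size or level differed between KM12 and LS174T by edgeR's test of the difference itself (Benjamini-Hochberg adjusted p below 0.05 over 16070 genes). Each value is the log2 difference of xenograft minus culture in KM12 less that in LS174T.

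Among genes that rose in KM12, the difference was 6.17 for PIGR, 4.54 for NEUROG3, 7.67 for SLC18A1, 9.15 for B3GNT6, 5.40 for HEPACAM2, 3.92 for DLL1, 1.59 for NEURL1 and 4.77 for SUSD2. It was 10.3 for FGF7 and 10.0 for FREM2. FGF7, FREM2 and SLC18A1 had less than 1 CPM in each LS174T library, so the size of their differences depends on the prior count. SUSD2 had 1.465 CPM or less in each. Knockout and parental KM12 cultures held 2 and 4 counts of NEUROG3, 2 and 10 of HEPACAM2 and 1 and 6 of B3GNT6. In the LS174T Dox(+) and Dox(-) xenografts, DLL1 had 30.6 and 51.3 CPM, NEURL1 55.8 and 46.1, HEPACAM2 25.2 and 19.2 and NEUROG3 15.6 and 10.2. These differences thus need not mean higher levels in KM12 tumors. For genes at higher levels it was 3.60 for RN7SL2, 1.43 for CD24, 0.798 for TMSB4X and 0.701 for SLC25A3. PIGR had 2702 and 4638 CPM in the LS174T Dox(+) and Dox(-) xenografts, against 2002 and 2070.0 CPM in the matching cultures, so that LS174T held it at a high level in both environments while KM12 cultures had 2.66 and 1.29 CPM. SUSD2 encodes a membrane protein and FREM2 a basement membrane protein.

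Among genes that fell in KM12, the difference was -3.17 for LCN2, -1.42 for KLK10, -8.01 for PRSS1, -3.81 for KIF21B, -3.10 for MYH4, -5.15 for MEGF6, -7.68 for TNNT1, -4.50 for FIBCD1, -1.81 for PTMAP4 and -1.10 for EEF2. KIF21B, a kinesin, had 2.67 and 1.52 CPM in knockout and parental xenografts, against 60.4 and 51.5 CPM in matching cultures in KM12. TNNT1, a troponin of slow muscle, had 1.09 and 2.69 CPM in knockout and parental xenografts, against 66.8 and 43.8 CPM in matching cultures in KM12, and less than 2 CPM in each LS174T library. PRSS1 also had less than 2 CPM in each LS174T library, so the size of both differences is uncertain. MEGF6, a protein with EGF-like repeats, had 3.27 and 4.55 CPM in knockout and parental xenografts, against 61.4 and 84.6 CPM in matching cultures in KM12.

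The pairs moved apart for heat shock chaperones, whose median log2 ratio was lower in the knockout pair than in the parental pair by a difference of -1.04. This difference was not tested, as each GNAS state has 1 tumor and 1 culture.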

How the results depend on the processing

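The 181 called genes named by the rule kept their direction under all alternatives run. Of these, 142 kept an adjusted p below 0.05 under all but the fits that leave out a library. The genes were picked by size, level or small p, and the alternatives reuse the same KM12 libraries, which favors a kept direction. Without either culture all 181 lost the call. Main counts were 1636 genes higher and 1565 lower. Without a filter on low counts they were 2585 higher and 3608 lower of 33022 genes. In the fit of all 8 libraries 2485 were lower, with a filter of 5 CPM 971 were lower, and over protein-coding genes alone, an alternative chosen after seeing the data, 907 were higher and 860 lower. Leaving out 1 library at a time, which also removes the block, gave 0 to 3841 genes higher (3718 without the parental xenograft) and 0 to 3898 lower (3894 without it). The cause of these shifts was not tested. The filter of 5 CPM and the protein-coding set also tested fewer genes, 11224 and 12145. In the main fit, 1101 of the higher and 1465 of the lower genes were protein-coding. RLE size factors gave 1564 higher and 1499 lower, and thinning to the smallest total 1233 and 1211. The labels give no replicate numbers that pair libraries. The GNAS state served as the pairing, and without that block 1821 genes were higher and 1737 lower, of which 2895 in both directions were also called with it.

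Genes and list medians near 0 turned direction. Leaving out 1 library at a time gave log2 differences of -0.13 to 0.50 for VEGFA, -0.96 to 0.11 for HSPA4L, -0.393 to 0.0154 for HSP90AB1, -1.17 to 0.0462 for HSP90AA1, -0.21 to 0.46 for HSP90B1, -0.83 to 0.46 for CD44 (0.017 without the parental culture), -0.11 to 0.0521 for EZR, -1.75 to 0.48 for CSF1R and -1.20 to 0.13 for HMOX1 (0.0642 without the parental xenograft). For list medians the ranges were -0.18 to 0.18 for mitosis (-0.00589 without the parental culture), -0.79 to 0.12 for heat shock chaperones, -0.82 to 0.12 for Wnt targets (0.017 without the parental culture), -0.60 to 0.0491 for enterocyte genes, -0.42 to 0.0479 for collagens, laminins and integrins, -0.13 to 0.30 for p53 targets, -0.62 to 0.67 for replication-dependent histones, -0.17 to 0.0844 for TGF-beta and BMP signaling and -0.33 to 0.0420 for iron handling. Without a filter the values were -0.0187 for HSP90B1, -0.13 for mitosis, -0.0583 for p53 targets and -0.0553 for histones. With a filter of 5 CPM they were 0.0590 for EZR, -0.11 for histones and 0.41 for the Notch pathway. The fit of all 8 libraries gave -0.0321 for mitosis and the protein-coding set 0.0403 for EZR. The cause was not tested.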

Other observations

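Keratins and desmosomal proteins of stratified epithelium did not share a direction, with 1 of 5 tested genes higher and 2 lower. KRT14 had 0.0495 and 0.292 CPM in knockout and parental xenografts, against 1.33 and 1.73 CPM in matching cultures (log2 difference -3.25 ± 0.66, adjusted p = 0.0291), DSG3, a desmosomal cadherin, had 3.81 and 5.14 CPM in knockout and parental xenografts, against 10.6 and 10.6 CPM in matching cultures (log2 difference -1.26 ± 0.30, adjusted p = 0.0396), and KRT10 had 28.1 and 24.6 CPM in knockout and parental xenografts, against 14.8 and 15.6 CPM in matching cultures (log2 difference 0.79 ± 0.20, adjusted p = 0.0426). Among 11 tested histone genes, H1-4 (log2 difference 2.60 ± 0.48) and H1-5 (log2 difference 3.89 ± 0.63) were higher and 1 was lower. In the knockout pair 4 of the 11 lay above 0, and in the parental pair 10. Replication-dependent histone transcripts lack a poly(A) tail, and these libraries were made by oligo(dT) capture.

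Markers of other cell types that passed the filter were few. MSLN, mesothelin, had 5.89 and 24.2 CPM in knockout and parental xenografts, against 2.25 and 1.73 CPM in matching cultures (log2 difference 2.59 ± 0.73, adjusted p = 0.0784). PLIN4, a lipid droplet protein, had 0.347 and 0.467 CPM in knockout and parental xenografts, against 4.19 and 3.32 CPM in matching cultures (log2 difference -3.20 ± 0.47, adjusted p = 0.0164). MYH4, a myosin heavy chain of fast muscle with close copies, had 1.19 and 0.292 CPM in knockout and parental xenografts, against 25.1 and 11.1 CPM in matching cultures (log2 difference -4.70 ± 0.37, adjusted p = 0.00868). In CPM of the raw counts the 10 lymphocyte markers summed to 2.95 and 2.89 CPM in the knockout and parental xenografts, against 1.83 and 1.44 CPM in the matching cultures.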
